A study of Arabidopsis thaliana with 6 samples.

Results

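The cytosolic ribosomal protein S15 genes of Arabidopsis thaliana were examined in sorted phloem and non-phloem protoplasts. The members were the listed S15 loci with a probe set annotated to exactly 1 gene, and all 5 listed loci had 1 such probe set, out of 16550 genes named on the array. They are AT5G09490, AT5G09500 and AT5G09510, which lie next to each other on chromosome 5, and AT5G43640 and AT5G63070, which lie elsewhere on the same chromosome. A sixth cytosolic S15 gene, AT1G04270 (RPS15), and the organellar homologues of this protein were not analysed here. The set was chosen by the difference of AT5G09500 between YFP-positive and YFP-negative arrays, seen in earlier work on these values, and by membership of its gene family. Differences of the 5 genes between these groups are therefore given as descriptions, without a test.

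S15, called uS19 in the unified nomenclature, is a protein of the small (40S) ribosomal subunit, placed in its head near the decoding site. Each cytosolic ribosomal protein of Arabidopsis is encoded by a small gene family, and the copies differ in expression between tissues. Phloem sieve elements are a special case among plant cells, since they lose their nucleus and ribosomes as they mature, and protein synthesis then rests with the adjoining companion cells.

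The arrays came from cotyledons of 6-day-old seedlings that carried SEOR1pro::SEOR1-YFP, a fluorescent fusion of a sieve element protein driven by its own promoter. All cotyledons had been kept for 72 hours in a medium with the auxin 2,4-D at 1.25 mg/L, the cytokinin kinetin at 0.25 mg/L and bikinin, which blocks GSK3-like kinases, at 10 µM, a treatment known as VISUAL that turns leaf cells into vascular cells. Protoplasts were sorted into YFP-positive cells, described by the submitters as phloem, and YFP-negative cells, described as non-phloem, with 3 arrays of each, numbered 1 to 3. Both groups thus shared genotype, age and treatment, and no untreated cotyledons are part of the comparison. The labels do not say whether the replicates were separate cultures, so that the spread between arrays may be technical. The 2 arrays of a number had nearly the same distribution of values, since values of equal rank differed on average by 0.02, 0.08 and 0.04 on numbers 1, 2 and 3, against 0.16 to 0.55 between arrays of different numbers. Group SDs, group overlaps and correlations over 6 arrays therefore include differences of scale between numbers, and differences within a number are given beside them. The sample is a sorted pool, in which fewer cells of a type and less RNA per cell cannot be told apart.

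Few defining markers could be checked. Of 11 sieve element genes 2 were measured, and all 3 YFP-positive values of CLE45, a protophloem peptide gene, lay above its YFP-negative values, by 2.15 on the log2 scale. OPS, a regulator of protophloem identity, was higher in YFP-positive cells on each number, by 0.29, 1.16 and 0.73, while its groups overlapped over the 3 numbers. Of 5 mesophyll genes the 2 measured, RCA and PSBW, had all YFP-positive values below the YFP-negative ones, with differences of -0.71 and -1.13. Without YFP-negative array 2, which leaves its partner unmatched, the pooled difference of OPS turned from 0.73 to -0.21. None of the 4 companion cell and 5 xylem genes was measured under a name, and SEOR1 itself was not analysed here. The part of other cell types in the S15 values was not tested.

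AT5G09500 was the one S15 gene whose mean was higher in YFP-positive cells, and its difference lay mainly on arrays numbered 2 and 3. Its log2 values were 2.73, 1.02 and 1.51 on YFP-negative arrays 1, 2 and 3, and 3.17, 5.19 and 5.89 on the YFP-positive arrays of the same numbers. The groups did not overlap, although the lowest YFP-positive value stood close to the highest YFP-negative one, and both of these came from number 1. The means were 1.75 ± 0.88 (SD, n = 3) and 4.75 ± 1.41 (SD, n = 3), a difference of 3.0. The SE that limma moderates over all genes was 0.80 for it, and SEs below are of the same kind. Within numbers 1, 2 and 3 the difference was 0.44, 4.17 and 4.38. It ranked 276th among the 16550 genes ordered from the highest to the lowest difference.

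The place of these values within their arrays shows how dim the YFP-negative signal was. On YFP-negative array 2 only 10.7% of all probe sets had a lower value than AT5G09500, and on YFP-negative array 3 it was 25.9%. On YFP-positive arrays 2 and 3 the shares were 75.6% and 74.4%. On number 1 the gene stood near the middle of both arrays, at 51.5% in YFP-negative and 54.3% in YFP-positive cells. Because 2 of the 3 YFP-negative values lay under the median of their array, and signal over background was not analysed here, the difference is one of deposited values and no fold in transcript level is given.

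**Figure D1:**
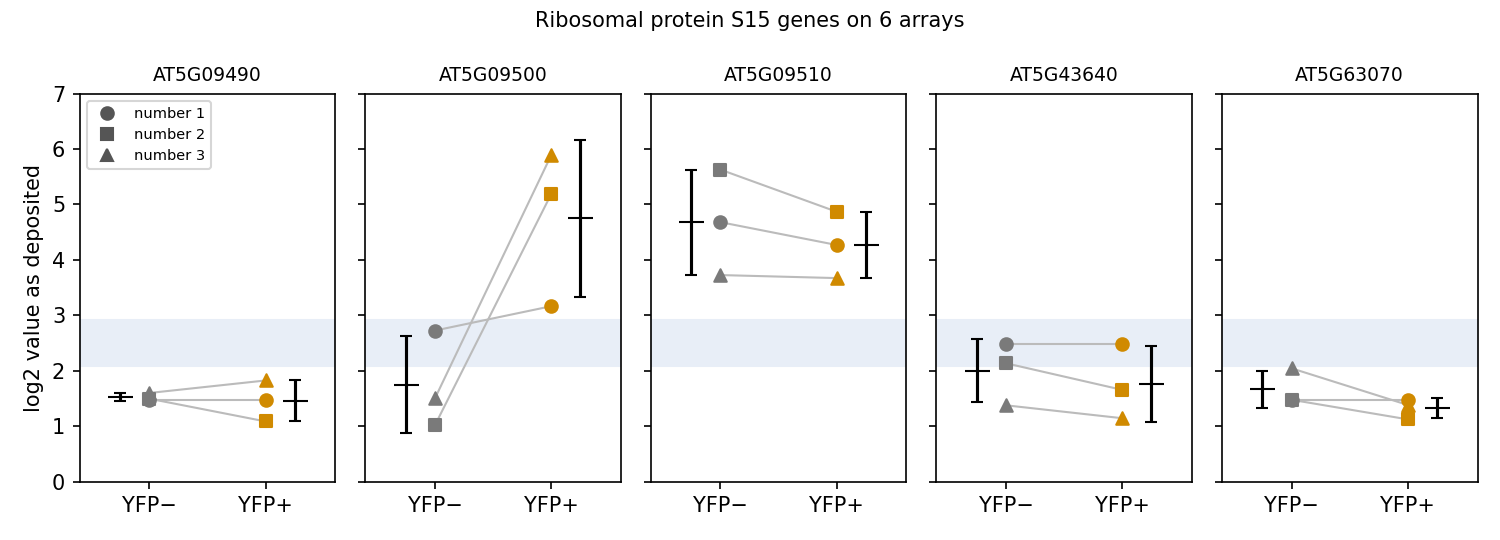
Log2 values of the 5 S15 genes on each array (y axis), with YFP-negative arrays in grey and YFP-positive arrays in orange; symbols mark the array number, lines join arrays of one number, crossbars and whiskers are the group mean and SD (n = 3), and the blue band spans the medians of the 6 arrays. AT5G09500 lies far above the band in YFP-positive cells on numbers 2 and 3 and close to it in both groups on number 1, and AT5G09510 lies above the band on every array.

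AT5G09510, the next gene of the tandem, was the only S15 gene whose value lay over the array median on all 6 arrays. It stood at 4.68, 5.63 and 3.73 on YFP-negative arrays 1 to 3 and at 4.27, 4.87 and 3.67 on the YFP-positive arrays. The groups overlapped, and the arrays of number 2 were the highest in both. The group means were 4.68 ± 0.95 (SD, n = 3) and 4.27 ± 0.60 (SD, n = 3), so the difference of -0.41 was smaller than either SD. All 3 differences within a number were negative, at -0.41, -0.76 and -0.05. Without YFP-negative array 2 the sign of the pooled difference turned, to 0.07, and leaving out each other array in turn gave -0.88 to -0.11. AT5G09510 and AT5G09500 thus had differences of opposite sign on each number, and that of AT5G09510 did not exceed its spread.

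AT5G09490, the first gene of the tandem, was dim throughout, at 1.47, 1.5 and 1.6 on YFP-negative arrays and 1.47, 1.09 and 1.83 on YFP-positive arrays. No value reached the median of its array, and the groups overlapped with a difference of -0.06. It turned to 0.13 without YFP-positive array 2. AT5G63070, the locus farthest along the chromosome, was as dim, at 1.47, 1.48 and 2.05 in YFP-negative and 1.47, 1.13 and 1.39 in YFP-positive cells, again with no value over the array median. Its difference was -0.34, or -0.15 without YFP-negative array 3, and its groups touched at the shared value of number 1. For these 2 genes such values do not separate a low transcript level from none.

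AT5G43640 had values of 2.49, 2.14 and 1.38 on YFP-negative arrays and 2.49, 1.66 and 1.15 on YFP-positive arrays. Only YFP-negative array 2 gave a value over the array median, and by a small margin. The groups overlapped, with a difference of -0.24 against SDs of 0.57 and 0.68. That difference came to 0.01 without YFP-negative array 1 and to 0.07 without YFP-positive array 3. The values of this gene followed the array number more than the sorted fraction, being highest on number 1 and lowest on number 3 in both groups.

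Values that were identical on the 2 arrays of one number touch 3 of the 5 genes. On number 1, AT5G09490, AT5G43640 and AT5G63070 each had the same value in YFP-negative and YFP-positive cells, as did 35.1% of all probe sets, against 5.11% on number 2 and 4.84% on number 3. AT5G09490 and AT5G63070 even shared one value, 1.47, which 337 probe sets held on YFP-negative array 1 and 499 on YFP-positive array 1. The zero differences of these 2 genes on number 1 therefore rest on a value common to many dim probe sets. The shared value of AT5G43640 was held by 8 and 5 probe sets and lay near the middle of both arrays. AT5G09500 and AT5G09510 had no such shared value on any array.

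Subtracting the paralogues within each array takes out a shift only where it moved all of these values alike. Whether dim values shared such shifts was not tested. AT5G09500 minus the mean of the other 4 genes was 0.20, -1.66 and -0.68 on YFP-negative arrays and 0.74, 3.0 and 3.88 on YFP-positive arrays. The groups did not overlap, and the within-number differences were 0.54, 4.67 and 4.56. The pooled difference was 3.26, slightly above the 3.0 of AT5G09500 alone. Taken one at a time, the difference of AT5G09500 was larger by 3.06 than that of AT5G09490, by 3.40 than that of AT5G09510, by 3.23 than that of AT5G43640 and by 3.33 than that of AT5G63070, and the groups were apart in each case. These 4 values span less than the SD of AT5G09500 in either group. All of them contain the difference of AT5G09500, by which the set was chosen, so they are not separate results. AT5G09490 and AT5G63070, with no value over the array median, add little to them. Levels of different probe sets were not ordered against each other, because each has its own response to RNA, and whether paralogues share probe signal was not tested.

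**Figure D2:**
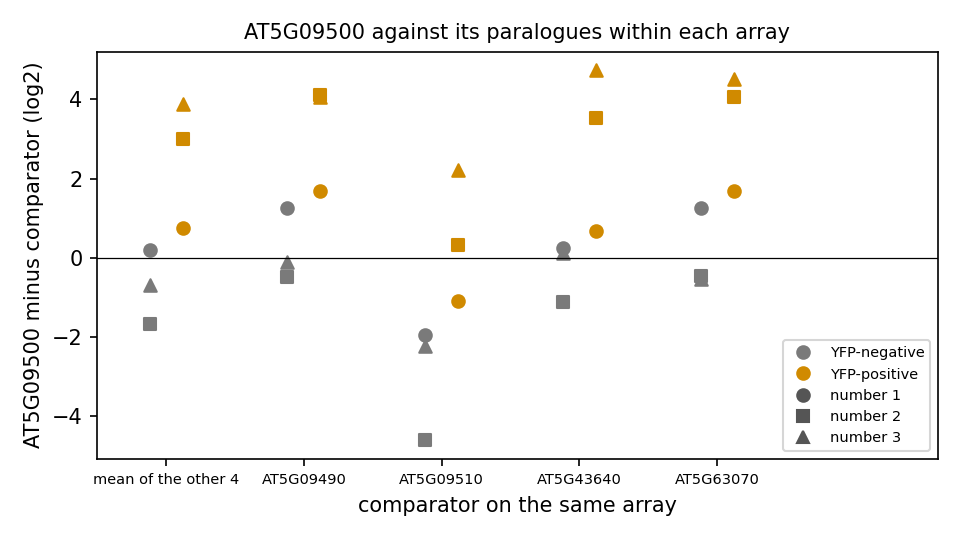
AT5G09500 minus the mean of the other 4 S15 genes, or minus each of them, on the same array (y axis, log2 difference), with YFP-negative arrays in grey, YFP-positive arrays in orange and symbols for the array number. For every comparator the 3 YFP-positive points lie above the 3 YFP-negative points, with number 1 the closest of the 3 numbers.

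In limma's fit over all genes 0 of the 5 S15 genes passed an adjusted p of 0.05, where 1.08% of all genes did, and 1 had an unadjusted p under 0.05, against 7.96% of all genes. With the array number as a block 0 passed, against 0.544%, and 1 had an unadjusted p under 0.05, against 13.8%. The groups did not overlap, with YFP-positive higher, for 1 of the 5, against 4.96% of all genes. The gene counted each time is AT5G09500, which was picked for this contrast, so that these counts describe the choice.

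The other cytosolic ribosomal protein genes showed where the family's surroundings stood. Of 228 listed loci other than S15, 146 were measured, 55 of the small and 91 of the large subunit. In limma 0 of the 146 passed in either direction, where 1.08% of all genes did, and 0 with the block, against 0.544%. An unadjusted p under 0.05 in limma was found for 2, against 7.96% of all genes. With the block it was found for 4, against 13.8%. The pooled median difference was -0.04, as it was over all genes, and it was -0.01 for the small and -0.07 for the large subunit. Within numbers the medians of the 146 went different ways, at -0.23, 0.21 and -0.14 on numbers 1, 2 and 3. Over all genes they were 0 on each number. Only 1 of the 146 differed by at least 2-fold, against 12.7% of all genes. Groups were apart for 2 higher and 4 lower genes among the 146, where 4.96% and 4.34% of all genes were. As for brightness, 134 of the 146 lay over the array median on all 6 arrays and 9 on none, whereas among the 5 S15 genes these counts were 1 and 2. Over all 16550 genes they were 6560 and 6065.

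AT3G28500, which encodes an acidic P2 protein of the large subunit stalk, had the largest difference of these genes, 1.58 (SE 0.68, adjusted p = 0.684 from limma). It stood at 4.43, 2.51 and 5.15 on YFP-negative arrays and at 5.95, 5.43 and 5.45 on YFP-positive arrays. Its groups did not overlap, and most of its difference came from number 2, where YFP-negative cells were low. Next were the S25 genes AT4G34555 and AT2G16360, at 0.91 and 0.72, the L18 gene AT2G47570 at 0.68 and the L37 gene AT1G15250 at 0.66. At the other end stood the L35a gene AT1G74270, at -0.85 (SE 0.34, adjusted p = 0.589), and the S16 gene AT3G04230, at -0.72 (SE 0.26, adjusted p = 0.487), each with groups that did not overlap. They were followed by AT5G40040 (P2), AT2G37600 (L36) and AT2G37190 (L12), at -0.70, -0.70 and -0.62. With the array number as a block, limma's adjusted p was 0.384 for AT3G28500, 0.167 for AT1G74270 and 0.218 for AT3G04230. None of these 10 passed the threshold in either fit. Single arrays carried much of several of these differences. Without YFP-negative array 2, AT3G28500 came to 0.82 and AT4G34555 to 0.39. Without YFP-positive array 3, AT2G16360 came to 0.22, AT2G47570 to 0.32, AT1G15250 to 0.15 and AT2G37190 to -0.22. AT5G40040 came to -0.37 without YFP-negative array 3.

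Paralogues of most ribosomal proteins differed little from each other, and most of these genes also differed little between the groups. The median absolute difference of the 146 genes other than S15 was 0.18. Whether paralogues were more alike than unrelated ribosomal protein genes was not tested. In 54 families with at least 2 measured genes, the gap between the highest and the lowest difference had a median of 0.35, and it was at least 1 in 3 families, or in 5 to 11 when 1 array was left out, a count added after the values were seen. S15 had the widest gap, 3.40 between AT5G09510 and AT5G09500, as follows from the choice of the family. P2 was next with 2.28, between AT5G40040 and AT3G28500, and then L12 with 1.16. A gap can only widen as more genes of a family are measured. S15 and P2 had the most measured genes, 5 each, against 3 for L12. The L12 gap rested on AT5G60670, which was at 2.91 on YFP-negative array 2 and at 6.49 and 6.35 on the other YFP-negative arrays. Without YFP-negative array 2 the gap of L12 was 0.23 and without YFP-positive array 3 it was 0.61, while that of P2 ran from 1.94 to 2.60 and that of S15 from 2.79 to 4.39. In P2 the lower end of the gap, AT5G40040, lay under the array median on all 6 arrays.

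**Figure D3:**
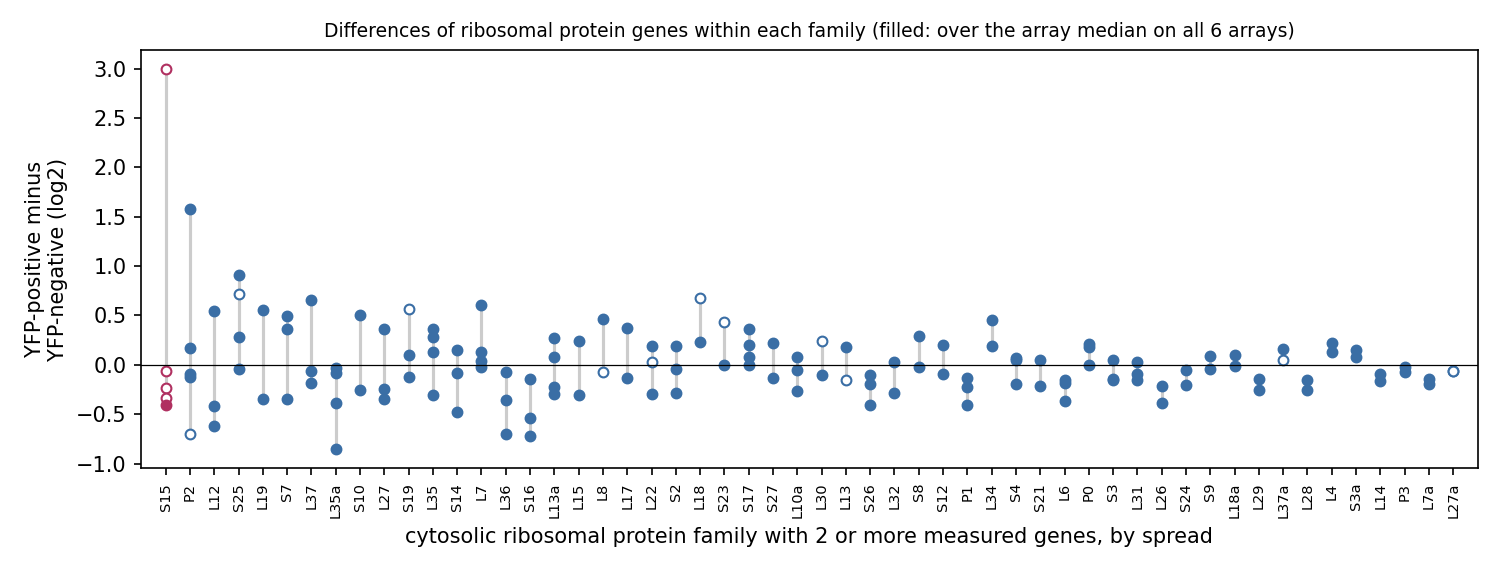
Differences between YFP-positive and YFP-negative cells (y axis, log2) for the measured genes of 54 cytosolic ribosomal protein families, ordered by the gap within the family; each point is a gene, S15 in red and the others in blue, filled where the gene lay over the array median on all 6 arrays. AT5G09500 lies at 3.0, away from its 4 paralogues and from all other genes shown, of which the highest is AT3G28500 at 1.58.

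The 5 nearest measured genes on each side of the tandem had differences, none of them near that of AT5G09500, from -0.41 for AT5G09560 to 1.04 for AT5G09430. Without YFP-negative array 2 that of AT5G09430 came to 0.40. AT5G09480, directly before AT5G09490, was dim in both groups and differed by -0.02, a sign that turned under quantile normalization. AT5G09540, the first measured gene after AT5G09510, with 3 unmeasured genes between, differed by 0.41 with overlapping groups. Among the 10 genes AT5G09560 alone had groups apart, with YFP-positive lower, and every value of it lay under the array median.

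Probe sets without a named gene lay between those of the tandem in the order of their identifiers. For 60 named probe sets of chromosome 5 with identifiers within 500 of the first tandem probe set, each of the 59 steps in identifier order led to a gene starting further along the chromosome. In this run 7 unnamed probe sets fall between AT5G09490 and AT5G09510, and they were looked at after the values of AT5G09500 were known. The 2 that come next after AT5G09500 in this order, with identifiers 13523874 and 13523877, also had higher means in YFP-positive cells. The identifier 13523877 comes directly before that of AT5G09510, 13523878, which did not have a higher mean. Probe set 13523874 stood at 0.93, 0.65 and 1.52 on YFP-negative arrays and 4.56, 6.31 and 6.41 on YFP-positive arrays. Its groups were far apart on all 3 numbers, number 1 included. Groups apart with YFP-positive at least 4-fold higher were found for 1.55% of all probe sets without a named gene.

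Probe set 13523877 stood at 1.89, 0.75 and 1.57 against 1.89, 4.86 and 5.30, with equal values on number 1 and differences of 4.12 and 3.73 on numbers 2 and 3. Over the 6 arrays the Pearson correlation with AT5G09500 was 0.92 for 13523874 and 0.97 for 13523877, a description over arrays that share numbers and groups. Of the other 5 unnamed probe sets, 13523872, directly before AT5G09500, overlapped between groups with a difference of 1.28, and 13523871 was lower in YFP-positive cells by -1.25 with groups apart. The remaining 3 overlapped, with differences from -1.0 to 0.06. Among them 13523868, under the array median on every array, differed on number 1 by 0.44, as AT5G09500 did. Whether that difference of AT5G09500 on number 1 is more than dim signal was not tested. Which transcripts these probe sets measure was not determined here.

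**Figure D4:**
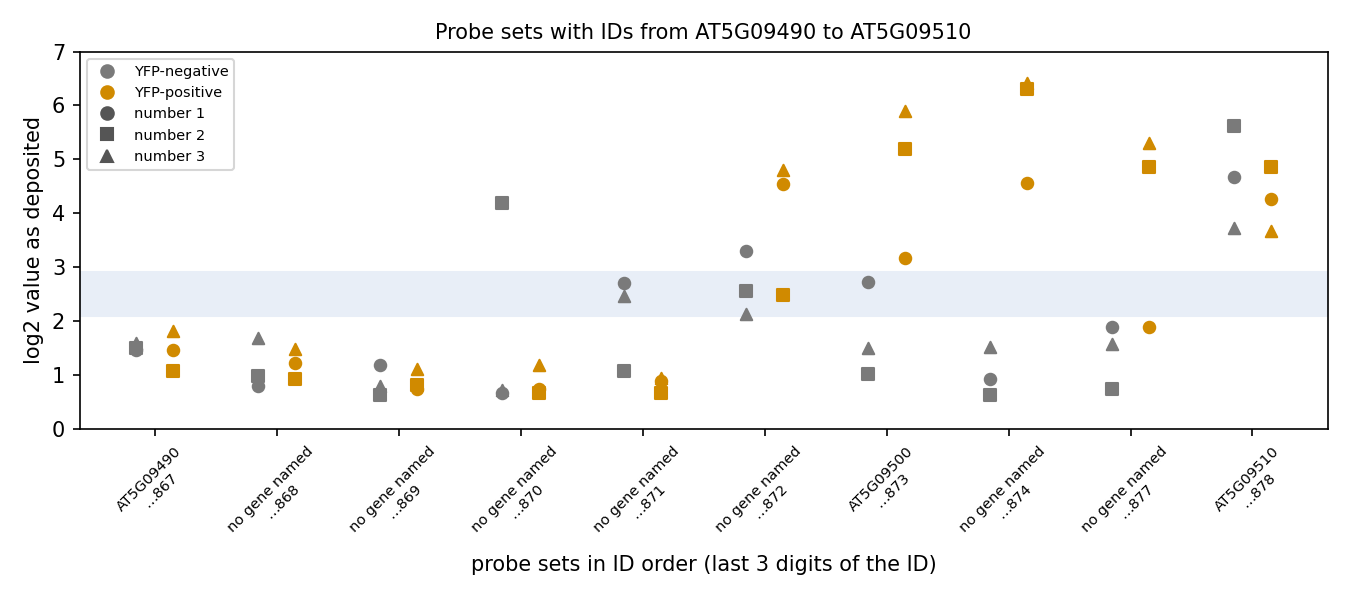
Log2 values (y axis) on YFP-negative (grey) and YFP-positive (orange) arrays for the 10 probe sets with identifiers from AT5G09490 to AT5G09510, in identifier order (x axis, last 3 digits given), with symbols for the array number and a blue band spanning the 6 array medians. AT5G09500 and the 2 unnamed probe sets after it reach 4.86 to 6.41 on YFP-positive arrays 2 and 3, and AT5G09490 stays under the band.

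Genes with the pattern most like that of AT5G09500 were sought by Pearson correlation over the 6 arrays, among 5386 genes that ranged over at least 2 on the log2 scale. The 5 highest were AT3G07120 at 0.993, AT4G33480 at 0.984, AT1G09812 at 0.975, AT2G01990 at 0.974 and AT1G17970 at 0.973. AT2G01990 was the one with the largest difference, with 5.16, 4.13 and 5.25 on YFP-negative and 6.54, 8.75 and 9.01 on YFP-positive arrays. All 5 had, like AT5G09500, a smaller difference on number 1 than on the other numbers, from 0.00 for AT1G17970 to 1.38 for AT2G01990. That likeness largely follows from picking them by their correlation with AT5G09500 on these arrays. AT1G17970 had the same value, 1.98, on both arrays of number 1. Neither it nor AT3G07120 had a YFP-negative value over the array median. The 4 other S15 genes correlated with AT5G09500 at -0.04 (AT5G09490), -0.37 (AT5G09510), -0.44 (AT5G43640) and -0.65 (AT5G63070). With 6 arrays that share numbers and groups these values describe likeness and carry no test.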

How the data were processed

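The authors deposited 1 table of log2 values for 38408 probe sets on 6 arrays, which the submitters' processing notes credit to RMA; its version is not given in the sources used here. That they are log2 was read from their range. Per the labels' protocols, RNA was amplified and biotin-labelled. Probe sets were named through the platform annotation and the RefSeq gene table of TAIR10.1, which held 16411 of 16550 gene IDs; 16722 probe sets had 1 gene, 759 several and 20927 none. The highest-mean probe set stood for a gene. The array table names no genome build, so coordinates are left out.

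Differences are YFP-positive minus YFP-negative. Tests used limma 3.58.1 in R 4.3.3 (lmFit, eBayes, two-sided), adjusted by Benjamini-Hochberg across 16550 genes, at a threshold of 0.05. The fit was also run on simulated data with independent noise. Those data held no equal values and no effect of the array number, so the run does not cover either. How arrays of different numbers were scaled to each other is unknown. The number of arrays limits the precision. The array numbers, from the sample titles, pair the arrays: deviations from the group means correlated at 0.66, 0.61 and 0.49 for numbers 1, 2 and 3. Named genes were the measured S15 loci, the 5 measured genes on each side of the tandem, the 5 other ribosomal protein genes with the largest differences in each direction, the 5 genes most correlated with AT5G09500, and measured markers. The members and lists were chosen with earlier results of these data known. Alternatives were quantile normalization, median centring, the number as a block, each array left out, mean over probe sets, and a filter on dim genes.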

Additional observations from a re-analysis of the deposited data

Results flagged for a closer look

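A signal outside the named genes was found in probe set 13523874, for which no gene is named and whose identifier directly follows that of AT5G09500. It was higher in YFP-positive cells by 4.73 on the log2 scale, with differences within a number of 3.63, 5.66 and 4.88. No YFP-negative value reached its array median. Among the 20927 probe sets without a named gene, 1.55% had groups apart and a difference of at least 4-fold in this direction. It was picked out beside AT5G09500 after the values were seen, and its transcript was not determined.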

How the results depend on the processing

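Leaving out 1 array gave 2.42 to 3.79 for AT5G09500 and 2.59 to 4.16 for its excess over the other 4. Of the other 4 genes, 3 had a difference whose sign turned in 4 recalculations, each without 1 array. Quantile normalization and median centring gave 3.11 and 2.90 for AT5G09500, and the array number as a replicate block leaves the value at 3.0 by construction. The filter on dim genes kept 2 S15 genes, AT5G09500 and AT5G09510, so the excess over 4 paralogues has no value there, and AT5G09500 passed it on 4 arrays, 3 of them YFP-positive. No ribosomal protein gene passed in limma under any of the 11 alternatives, with 0 to 4 of the genes other than S15 at an unadjusted p under 0.05. Over all genes, 16550 or 8832 without dim genes, 37 to 384 passed under these alternatives. There 915 to 2279 had an unadjusted p under 0.05. Of 160 values of the 10 ribosomal protein genes and the 5 genes most like AT5G09500, 159 kept their direction and side of the threshold. Single arrays changed several sizes. The exception, AT1G09812, passed in limma without dim genes (adjusted p = 0.0467, range 0.0467 to 0.426), with fewer genes tested. It was picked by its correlation with AT5G09500, itself chosen for this contrast, so this pass carries no support. It met the filter on 4 arrays, 3 of them YFP-positive. For 5 of the 10 neighbours of the tandem the sign turned in 11 of 107 values (AT5G09450, AT5G09480, AT5G09570, AT5G09580 and AT5G09620), and for the 4 markers in 1 of 44, that of OPS.

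Over all genes the count of 179 (142 higher, 37 lower) was 90 (82 and 8) with the replicate block, 384 (265 and 119) with median centring, where 69.0% rather than 79.3% of calls were higher, and 343 (247 and 96) without dim genes. Leaving out 1 array gave 37 to 164 calls, 37 to 151 higher and 0 to 38 lower, with 38 without YFP-negative array 3, 81, 94 and 37 without YFP-positive arrays 1, 2 and 3, 86 higher without YFP-negative array 1, and 13 lower without YFP-negative array 2. The 0 lower calls came without array 3 of either group, where limma gave 464 and 404 genes an unadjusted p under 0.05 in that direction. The cause was not tested. Signal over background was not analysed here, which limits the 4 S15 genes with values under the array median.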
